A study of Mus musculus with 12 samples.

Results

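The 10 genes described here mark Kupffer cells, the macrophages that live in the liver, or macrophages in general. They were taken by symbol from the 25033 entries of the Ribo-seq table, and all 10 were listed there. Ribo-seq sequences the RNA fragments that translating ribosomes protect from digestion, so each read of a gene is 1 footprint of a ribosome on its mRNA. The values are footprints only as labelled, since a second table labelled as RNA-seq holds largely the same reads and the files do not show which label is right. The 6 libraries were made from livers of male C57BL/6 mice aged 16 weeks. The HFD group was fed a high-fat diet for 8 weeks from week 8 (n = 3 libraries, HFD1 to HFD3), and the LYC group was fed the high-fat diet with lycopene, a carotenoid (n = 3 libraries, LYC1 to LYC3). Every library thus came from mice on the high-fat diet. For LYC the label on treatment mentions that diet alone, and the lycopene is given by the titles and source names. The labels also speak of pooling within the groups before library construction, while the study calls the libraries biological replicates, so the p-values measure the spread between these libraries, part of which may be technical.

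Kupffer cells lie in the sinusoids, the small blood vessels of the liver, where they take up bacteria, worn red blood cells and lipoproteins. They arise from fetal precursors and renew themselves in place under the growth factor receptor encoded by Csf1r, and recruited monocytes can replace them when they are lost. Of the 10 genes, Clec4f encodes a lectin that in mouse liver is made by Kupffer cells, Cd5l a secreted protein of tissue macrophages, Vsig4 a receptor for complement fragments and Marco a scavenger receptor for bacteria. Adgre1 encodes the F4/80 antigen by which mouse macrophages are commonly stained, and Cd68 a glycoprotein of their lysosomes. C1qa, C1qb and C1qc encode the A, B and C chains that assemble into C1q, the molecule that starts the classical complement pathway and that is made largely by macrophages. On GRCm38, the build of the authors' mm10, Clec4f lies on chromosome 6 at 83644542 to 83656116, Cd5l on 3 at 87357881 to 87371074, Vsig4 on X at 96247201 to 96293438 and Marco on 1 at 120474538 to 120505024. Adgre1 lies on chromosome 17 at 57358581 to 57483529, Csf1r on 18 at 61105572 to 61131139 and Cd68 on 11 at 69664213 to 69666170. Each value is for the whole gene, and no exon or isoform was separated.

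The depth of the libraries set what could be seen. The deposited values are RPKM (reads scaled by the length of the gene and the total reads of the library), and the reads behind them were recovered from the steps between the values. The 10 genes together held 1016 reads in HFD1, 2065 in HFD2 and 298 in HFD3, but only 110, 129 and 140 reads in the LYC libraries taken in order. Of the 30 values in HFD only 1 rested on 5 reads or fewer, against 10 of the 30 values in LYC. For a gene 1 kb long, a single read amounted to 0.227 to 1.20 RPKM in HFD but to 2.43 to 3.21 RPKM in LYC. All 10 genes had reads in each HFD library, and 2 values in LYC, both in LYC1, were 0.

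Summed over the 10 genes, the macrophage markers took a like share of the footprints in both groups. The share was 0.0474%, 0.0542% and 0.0470% of the reads on listed genes outside small non-coding RNA in HFD, beside 0.0372%, 0.0521% and 0.0451% in LYC. After division by TMM factors, edgeR's scaling between libraries, the summed level was 191, 200 and 184 RPKM in HFD and 187, 228 and 197 RPKM in LYC, and the groups overlapped on both scales. In whole liver, fewer cells of a type and less RNA per cell cannot be told apart.

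No gene of the 10 was called different between LYC and HFD. Genes were called at a log2 fold change beyond 1 in either direction with an unadjusted p under 0.01 by limma on log2(RPKM / TMM factor + 1), a scale that understates the change of low genes. Of all 5712 genes tested, 13.6% were called (7.06% higher and 6.5% lower), and 0 of the 8 members tested were. At an unadjusted p below 0.05, 2 members passed, C1qa and C1qc, against 30.2% of all genes. Marco and Cd68 had too few reads for the filter. On the same 8 genes, edgeR's quasi-likelihood test and DESeq2 on the recovered reads each called 1, Vsig4, higher in LYC, beside 8.63% and 8.93% of all genes. edgeR's exact test called 2, Vsig4 higher and C1qc lower, beside 9.75% of all genes in each direction. The median log2 fold change of the 8 members was -0.06, beside -0.10 for all genes tested. With total reads in place of TMM factors the median of all genes moved to -0.36, so the sign of a small log2 fold change depends on the scaling. Limma then called C1qc lower, beside 11.7% of all genes.

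**Figure D1:**
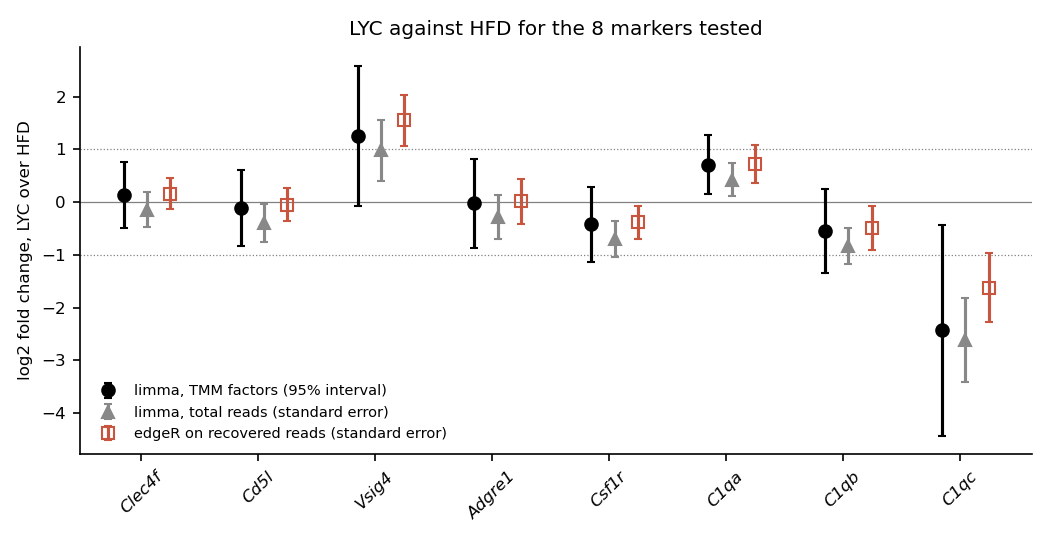
The log2 fold change of LYC over HFD (vertical axis) is plotted for the 8 markers tested, with limma's 95% interval (circles) and with standard errors for limma on total reads (triangles) and edgeR on recovered reads (squares). Vsig4 at 1.26 and C1qc at -2.44 lie outside the dotted lines of the call limit, both with wide intervals, and the other 6 lie within them.

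For Clec4f, Cd5l and Adgre1 the point estimates with TMM factors lay close to 0. The RPKM of Clec4f was 38.7, 34.0 and 33.0 in HFD1 to HFD3 and 22.2, 45.5 and 31.3 in LYC1 to LYC3, from 253, 360, 66, 21, 34 and 31 reads. The lowest and the highest value both lay in LYC, and the HFD values fell between them. Its log2 fold change was 0.14 (SE 0.28, 95% interval -0.49 to 0.77, adjusted p = 0.769 by limma with Benjamini-Hochberg adjustment), and it turned to -0.15 with total reads. At its share in HFD of the reads outside small non-coding RNA genes, taken without TMM factors, 88.0 reads of Clec4f were to be expected over the LYC libraries, and 86 were found (95% Poisson interval 68.8 to 106). Every such share pools the HFD libraries, so HFD2 weighs most in it. HFD2 held 3810485 of these reads, beside 2141740 in HFD1 and 634456 in HFD3. With TMM factors, a scale added after seeing the data, the expected number was 73.6. On the first of these scales, used below unless TMM is named, 70.1% of the 15749 genes with a read had fewer LYC reads than their HFD share gives, and with TMM factors 62.1%. Of the 5712 genes tested, which had passed the filter, 63.5% had fewer, and with TMM factors 50.9%.

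Cd5l had the most reads of the 10 genes. Its RPKM was 34.0, 60.0 and 38.2 in HFD, beside 23.6, 28.4 and 50.0 in LYC, so HFD2 and LYC3 stood above the other libraries and the groups overlapped. Its log2 fold change was -0.10 (SE 0.32, 95% interval -0.83 to 0.62, adjusted p = 0.857 by limma), and -0.39 with total reads. Over the LYC libraries 79 reads of Cd5l were found (95% Poisson interval 62.5 to 98.5, counting error only). From the share in HFD 103 were to be expected, and with TMM factors 85.8, which lies within the interval. Adgre1 lay lower, at 8.36, 9.78 and 6.83 RPKM in HFD and 6.42, 11.2 and 3.84 RPKM in LYC, and the LYC values came from only 8, 11 and 5 reads. Its log2 fold change was -0.02 (SE 0.37, 95% interval -0.87 to 0.82, adjusted p = 0.972 by limma), and several other settings put it just above 0. Its gene overlaps annotated pseudogenes, and the length used for its reads was fitted to the gene itself, as for Cd68.

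Csf1r, the receptor on which macrophages depend for survival, was lower in each LYC library than in any HFD library. The RPKM was 18.7, 23.5 and 20.1 in HFD but 13.1, 9.13 and 15.7 in LYC, with a ratio of the means of 0.607. The groups stayed apart after TMM factors, where the HFD values ran from 17.9 to 19.5 and the LYC values from 9.09 to 17.1. The difference did not pass limma's test (log2 fold change -0.42, SE 0.31, 95% interval -1.13 to 0.29, adjusted p = 0.397), and the exact permutation test of 3 against 3 libraries gave p = 0.1, the smallest it allows. The log2 fold change was -0.70 with total reads and -0.16 without LYC2. Over the LYC libraries 56 reads were found (95% Poisson interval 42.3 to 72.7, counting error only), and 86.0 were to be expected from the share in HFD. With TMM factors 71.9 were to be expected, which lies within the interval. Of its ligands, which the filter removed, Csf1 had 10 reads in LYC where 9.33 were to be expected and Il34 had 1 where 1.81 were.

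**Figure D2:**
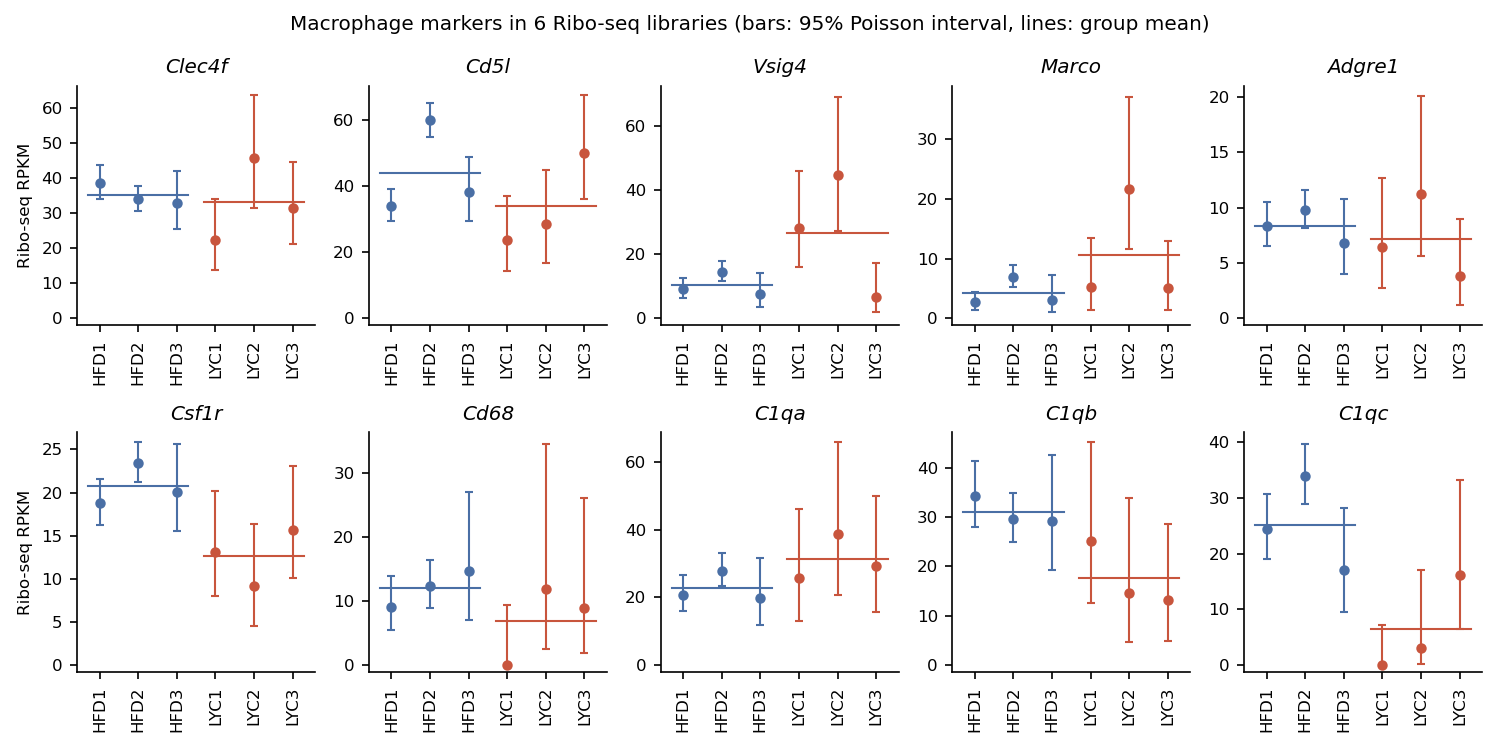
Ribo-seq RPKM (vertical axis) of the 10 markers in each HFD (blue) and LYC (red) library, with the 95% Poisson interval of the reads behind each value (bars, counting error only, drawn up to the worth of 3 reads where no read was found) and the group means (horizontal lines). The groups are apart for Csf1r, C1qb and C1qc, and for Vsig4 and Marco the high values lie in LYC2 or in LYC1 and LYC2.

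Vsig4 and Marco were uneven among the LYC libraries. The RPKM of Vsig4, whose product clears complement-coated bacteria from the blood, was 9.21, 14.6 and 7.52 in HFD and 28.3, 44.8 and 6.77 in LYC. LYC1 and LYC2 thus lay above every HFD library, while LYC3 lay below all of them, although after TMM factors LYC3 (7.41) lay just above HFD3 (7.30). These values rest on 16, 20 and 4 reads in LYC, and those of HFD on 36, 92 and 9. In limma the log2 fold change was 1.26 (SE 0.59, 95% interval -0.08 to 2.59, adjusted p = 0.189). On the recovered reads edgeR's quasi-likelihood test gave 1.55 (SE 0.49, adjusted p = 0.0372), past the call limits. Without LYC3 limma gave 2.01 with an adjusted p of 0.0101, a call, and without LYC2 it gave 0.79 with an adjusted p of 0.410, so the value moved with single LYC libraries.

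Marco had 2.67, 6.96 and 3.11 RPKM in HFD and 5.27, 21.7 and 5.04 RPKM in LYC, the latter from 4, 13 and 4 reads. LYC2 stood above the other 5 libraries, and the deposited values of the groups overlapped (exact permutation test, two-sided, p = 0.3). After TMM factors each LYC value lay above each HFD value (exact permutation p = 0.1), as in 18.9% of all genes tested. LYC3 (5.52) lay only just above HFD2 (5.50), by less than the 1.26 RPKM that a single read was worth in LYC3 before TMM factors. Without the filter limma gave a log2 fold change of 1.08 (SE 0.55, adjusted p = 0.301) and edgeR's quasi-likelihood test 1.32 (SE 0.60, adjusted p = 0.177). That unfiltered edgeR fit called Vsig4 higher and C1qc lower among the 10, beside 3.44% of 15749 genes higher and 5.47% lower. Over the LYC libraries 40 reads of Vsig4 were found where 17.8 were to be expected, and 21 of Marco where 10.1 were, 13 of them in LYC2. The ratio of Marco's mean RPKM, 2.51 with all libraries, was 1.21 without LYC2 and 3.69 without HFD2.

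Cd68 was at the limit of depth. Its RPKM was 9.02, 12.3 and 14.7 in HFD, from 20, 44 and 10 reads, and 0, 11.9 and 8.95 in LYC, from 0, 3 and 3 reads. The 0 in LYC1 allows a level of up to 9.35 RPKM by the floor of 3 reads, which lies within the range of HFD. The two-sided 95% Poisson interval of that 0 reaches 11.5 RPKM. Over LYC, 6 reads were found (95% Poisson interval 2.20 to 13.1) against 9.59 to be expected, and the exact permutation test gave p = 0.2. No difference in Cd68 was detected at this depth.

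**Figure D3:**
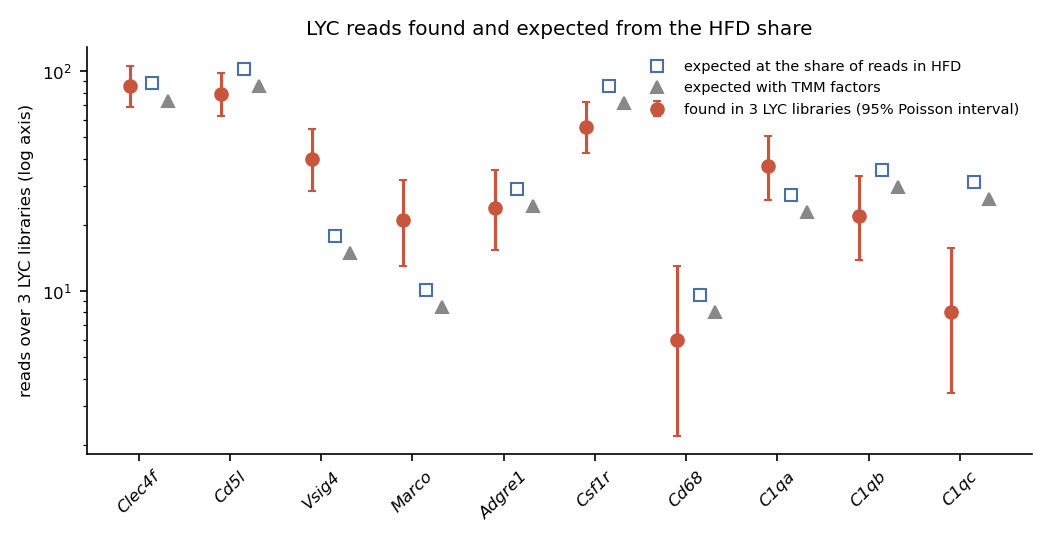
Reads of each marker summed over the 3 LYC libraries (red circles, with the 95% Poisson interval, which covers counting error only) beside the reads to be expected at the marker's share of the pooled HFD reads without TMM factors (blue squares) and with them (grey triangles), on a logarithmic vertical axis. On both scales the expected number lies above the interval for C1qc and below it for Vsig4 and Marco, whereas for Cd5l, Csf1r and C1qb it lies above without TMM factors and within with them, and for C1qa within without them and below with them.

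The 3 chains of C1q had point estimates on both sides of 0, and limma called none of them. Their genes lie side by side on chromosome 4 of GRCm38, C1qb at 136880126 to 136886200, C1qc at 136889801 to 136892936 and C1qa at 136895916 to 136898844. C1qa had 20.7, 27.9 and 19.9 RPKM in HFD and 25.8, 38.6 and 29.2 RPKM in LYC, and the ratio of the means was 1.37. The LYC values came from 11, 13 and 13 reads and overlapped those of HFD, although after TMM factors all of them lay above HFD. Its log2 fold change was 0.71 (SE 0.24, 95% interval 0.16 to 1.27, unadjusted p = 0.0170, adjusted p = 0.0894 by limma). With total reads limma gave 0.43 (unadjusted p = 0.199), and edgeR's quasi-likelihood test gave 0.72 (unadjusted p = 0.0596).

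C1qb and C1qc lay on the other side. C1qb had 34.2, 29.6 and 29.3 RPKM in HFD and 25.3, 14.6 and 13.2 RPKM in LYC, from 103, 144 and 27 and from 11, 5 and 6 reads, so that no LYC value reached the HFD range. Its log2 fold change was -0.55 (SE 0.35, 95% interval -1.34 to 0.25, adjusted p = 0.330 by limma). C1qc had 24.4, 34.0 and 17.1 RPKM in HFD from 70, 158 and 15 reads, and 0, 3.05 and 16.1 RPKM in LYC from 0, 1 and 7 reads. LYC1 and LYC2 held next to no reads of C1qc, while LYC3 came close to HFD3. The 0 in LYC1 allows up to 7.22 RPKM by the floor of 3 reads, and its two-sided 95% Poisson interval reaches 8.87 RPKM. In all, 8 reads of C1qc were found in LYC (95% Poisson interval 3.45 to 15.8), where 31.5 were to be expected. Its log2 fold change in limma was -2.44 (SE 0.88, 95% interval -4.43 to -0.44, unadjusted p = 0.0222, adjusted p = 0.106), and edgeR's quasi-likelihood test gave -1.62 (adjusted p = 0.0952). Without LYC3 limma gave -3.53 with an adjusted p of 0.0152, a call, and without LYC1 it gave -1.41 with an adjusted p of 0.207. Without HFD1 or HFD2 the gene no longer passed the filter.

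Of the 8 members tested, 3 (Csf1r, C1qb and C1qc) had all LYC values below all HFD values and 0 had them above. Of all genes tested 27.7% lay below in this way and 9.96% above. After TMM factors only Csf1r of these 3 stayed apart, and C1qa lay above, beside 19.1% of all genes below and 18.9% above.

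A ratio of 2 genes within a library needs no scaling between libraries, and 8 such ratios were formed after the values had been seen. The ratio of C1qb to C1qa was 1.65, 1.06 and 1.47 in HFD but 0.980, 0.377 and 0.452 in LYC. The ratio of C1qc to C1qa was 1.18, 1.22 and 0.855 in HFD but 0, 0.0790 and 0.553 in LYC. In both, every LYC library lay below every HFD library. C1qc over Clec4f also lay below in LYC, and C1qa over Clec4f above, at 0.535, 0.819 and 0.605 in HFD and 1.16, 0.848 and 0.930 in LYC. As the pairs were chosen for this pattern, the ratios are a description with no test. The other 4 overlapped between the groups, among them Vsig4 over Clec4f, at 0.238, 0.428 and 0.228 in HFD and 1.28, 0.984 and 0.216 in LYC.

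**Figure D4:**
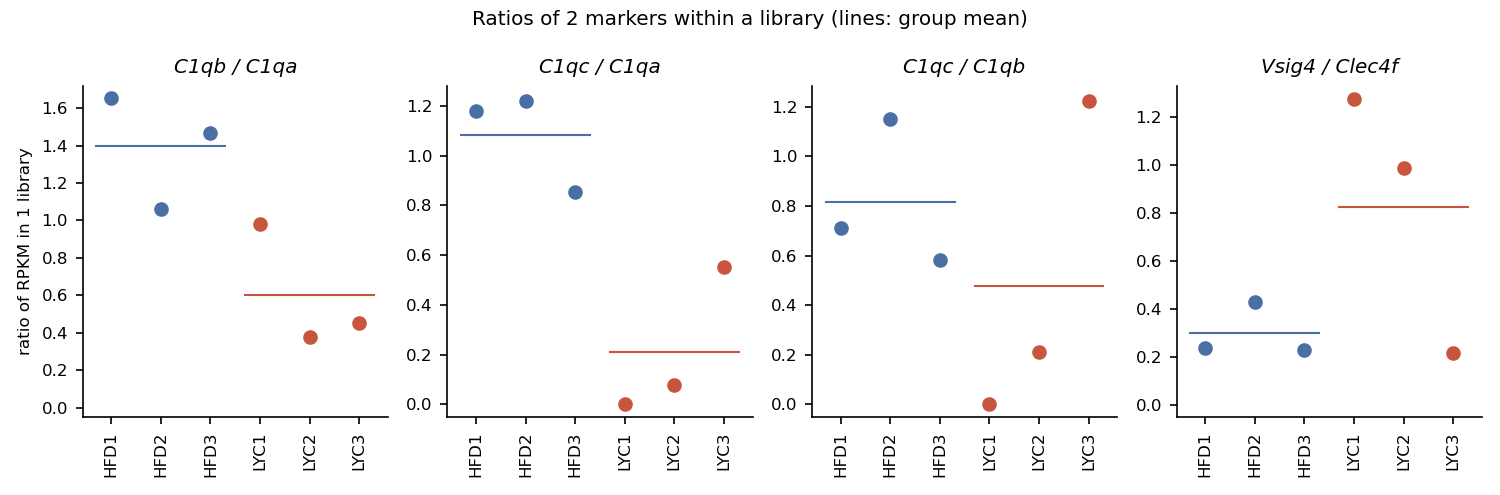
Ratios of the RPKM of 2 markers within a library (vertical axis, no unit) in each HFD (blue) and LYC (red) library, with group means as lines. C1qb and C1qc over C1qa lie lower in every LYC library than in any HFD library, and C1qc over C1qb and Vsig4 over Clec4f overlap through LYC3.

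The promoters of 7 of the 10 genes were found in the RefSeq table on GRCm38.p6 (250 bases before to 50 bases after the start of a transcript, which for C1qc lies a little inside the outer end of the gene given above), that is those of Clec4f, Cd5l, Vsig4, Marco, Cd68, C1qb and C1qc. Those of C1qb and C1qc, the chains with fewer LYC reads than their share in HFD gives, and of Vsig4, 1 of the 3 markers with more, are shown, a choice made after the values were seen. The letters GAGGAA, the core of sites for PU.1, a transcription factor of macrophages, were searched on both strands and are in capitals (TTCCTC on the other strand). The sequences read 5′ to 3′ along the gene, which lies on the minus strand in each case, at chr4:136886151-136886450 for C1qb, chr4:136892865-136893164 for C1qc and chrX:96293389-96293688 for Vsig4.
C1qb: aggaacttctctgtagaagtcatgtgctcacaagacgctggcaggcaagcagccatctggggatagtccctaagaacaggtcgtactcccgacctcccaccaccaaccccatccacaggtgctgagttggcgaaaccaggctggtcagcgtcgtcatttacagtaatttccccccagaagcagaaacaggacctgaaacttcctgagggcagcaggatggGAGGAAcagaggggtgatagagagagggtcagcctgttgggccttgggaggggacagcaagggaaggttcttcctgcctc
C1qc: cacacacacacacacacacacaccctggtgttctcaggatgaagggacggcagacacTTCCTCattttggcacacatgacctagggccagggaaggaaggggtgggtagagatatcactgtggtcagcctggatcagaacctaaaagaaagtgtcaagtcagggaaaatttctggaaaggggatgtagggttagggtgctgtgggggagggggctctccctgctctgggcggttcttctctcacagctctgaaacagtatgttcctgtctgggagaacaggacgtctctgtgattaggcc
Vsig4: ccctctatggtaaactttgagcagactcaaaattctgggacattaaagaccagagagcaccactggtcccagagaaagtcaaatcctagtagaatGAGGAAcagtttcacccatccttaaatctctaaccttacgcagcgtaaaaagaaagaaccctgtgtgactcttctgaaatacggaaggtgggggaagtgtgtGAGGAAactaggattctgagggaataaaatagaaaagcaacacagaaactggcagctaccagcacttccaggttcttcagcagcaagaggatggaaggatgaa
GAGGAA stood in 6 of the 7 promoters, all but that of Clec4f, and in 28.3% of all 32851 promoters in the table. Of the 3 longer strings also searched on both strands, GAGGAAGT (3.20% of all promoters) stood in that of C1qc, AGGAAGT (9.35%), which GAGGAAGT contains, in those of C1qb and C1qc, and GGGAAGT (5.72%) in those of Clec4f, Cd68 and Vsig4. A match is a description of letters and no sign of binding, and genes on both sides of 0 carry it.

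In level, the 10 genes lay between percentile 57.2 (Marco) and 91.6 (Cd5l) of the genes above 0 in HFD. The order by mean RPKM in HFD was Cd5l (44.1), Clec4f (35.2), C1qb (31.0), C1qc (25.1), C1qa (22.8), Csf1r (20.8), Cd68 (12.0), Vsig4 (10.4), Adgre1 (8.32) and Marco (4.25). The ranges of neighbours in this order overlapped except between Csf1r and Cd68. In LYC the order was Cd5l, Clec4f, C1qa, Vsig4, C1qb, Csf1r, Marco, Adgre1, Cd68 and C1qc, and the ranges of all neighbours overlapped, so that order is not resolved. C1qc stood at rank 4 in HFD and 10 in LYC, and Vsig4 at ranks 8 and 4.

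The tested genes whose level over the 6 libraries was most like that of Cd5l, the member with most reads, were Nr1i2 (Pearson's r = 0.98), Ash1l (0.98), Egln1 (0.97), Mtmr1 (0.97) and Arsb (0.97), on log2(RPKM / TMM factor + 1). None of them is a member, and 0.630% of all tested genes had an r above 0.9 with Cd5l, which with 6 libraries that share scaling and depth is a description only.

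Other genes known from Kupffer cells were mixed as well. Of 16 such genes 8 were tested, 1 was called lower and none higher, and their median log2 fold change was -0.41, beside -0.10 for all genes and 6.5% of all genes called lower. The gene called was Nr1h3, which encodes LXR alpha, a sterol-sensing nuclear receptor of Kupffer cells that hepatocytes make as well. It fell from 42.4 ± 7.32 RPKM in HFD to 11.5 ± 5.87 in LYC (SD, n = 3), from 173, 387 and 58 reads in HFD but 6, 4 and 13 in LYC (log2 fold change -1.61, SE 0.36, adjusted p = 0.0233 by limma). Slc40a1, the iron exporter ferroportin and the one with most reads, had a log2 fold change of 0.04 (95% interval -0.53 to 0.61). Singled out after their values were seen, Timd4, a receptor for dead cells on resident Kupffer cells, had 70 reads in HFD and 1 in LYC where 9.07 were to be expected, and Slc11a1, a metal transporter of the phagosome, had 98 and 1 where 12.7 were to be expected. In all, 12 of the 16 genes had fewer LYC reads than their share in HFD gives and 4 had more, beside 70.1% of all genes with a read that had fewer. With TMM factors 10 had fewer, beside 62.1%. Among the genes tested, as 8 of the 16 were, the shares with fewer were 63.5% and, with TMM factors, 50.9%. Of the 12 genes with fewer, Siglec1, a receptor for sialic acid, had 10 LYC reads where 26.8 were to be expected. Of the 4 with more, Cd14, a receptor for bacterial lipopolysaccharide, had 10 where 2.59 were. Timd4 and Slc11a1 did not pass the filter. Without it limma, which then called 5.41% of all genes lower, called Timd4 lower (log2 fold change -1.83, adjusted p = 0.0745) and not Slc11a1 (-1.81, adjusted p = 0.106), and edgeR's quasi-likelihood test called Slc11a1 lower (-3.25, adjusted p = 0.0859) and not Timd4 (-2.99, adjusted p = 0.150).

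Of 19 genes shared by macrophages and other myeloid cells 6 were tested and none was called lower by limma. The median of the 6 was -0.05, and Mpeg1, with most reads, stood at -0.64 (adjusted p = 0.371 by limma). Of the 6 genes of MHC class II antigen presentation, 3 were tested and none was called, with a median of -0.76 and Cd74, the invariant chain, at -0.51 (adjusted p = 0.289 by limma). Of 8 genes of lipid-associated macrophages 2 passed the filter and limma called neither, while edgeR's quasi-likelihood test without the filter called Fabp5, a fatty acid carrier, higher (log2 fold change 1.46, adjusted p = 0.0321) and Spp1, which encodes osteopontin, lower (-1.71, adjusted p = 0.0608). Trem2 and Gpnmb, which define these cells, had no read in LYC, where 0.648 and 0.389 were to be expected. None of 6 monocyte genes, with 3 to 8 reads a library in LYC, and none of 10 cytokine and chemokine genes, 7 of them without a read in LYC, passed the filter. Without it neither tool called a monocyte gene, and limma called the chemokine gene Ccl2 lower, with 12 reads in HFD and none in LYC where 1.55 were to be expected, which edgeR did not. Without it limma also called the myeloid genes Cd53 and Fcgr3 lower, which edgeR did not.

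C1q acts with the proteases of C1ra, which activates that of C1s1, and of C1s1, which cleaves C4 and C2, and these partners come largely from hepatocytes. Of 6 genes of the classical pathway outside C1q limma called none, and the median was -0.60. In 4 of the 6 all LYC values lay below all HFD values, as in 27.7% of all genes. C3, the central complement component, had 1190 RPKM in HFD and 464 in LYC (log2 fold change -1.12, SE 0.35, unadjusted p = 0.0105, adjusted p = 0.0689 by limma), just outside the call limit, and edgeR's quasi-likelihood test without the filter called it lower (-1.17, adjusted p = 0.00114). C1s1 stood at 0.02.

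Markers of other liver cells were read in the same libraries, and their summed levels are of deposited RPKM, without the TMM factors used for the log2 fold changes. On that scale the 10 members summed to 190 to 253 RPKM in HFD and 150 to 229 RPKM in LYC. The hepatocyte markers summed to 40257 to 44497 RPKM in HFD and 29311 to 36753 in LYC, led by Alb. The median log2 fold change of the 10 was -0.03, with 6 below 0 and 4 above. Limma called none lower and 2 higher, beside 7.06% of all genes, Tat, a tyrosine-degrading enzyme (log2 fold change 1.56, adjusted p = 0.0175 by limma), and Cps1 of the urea cycle (1.08, adjusted p = 0.0529). In deposited RPKM, 5 of the 10 had all LYC values below all HFD values, beside 27.7% of all genes tested. Another 3 had them above, beside 9.96%. Of 12 endothelial markers tested 1 was called lower (Eng), near the 6.5% of all genes, with a median of -0.34 and a summed level of 158 to 211 RPKM in HFD and 75.0 to 238 in LYC. None of 7 stellate cell markers tested was called, with a median of -0.25 and 167 to 282 RPKM in HFD and 127 to 206 in LYC. Of 3 tested red blood cell genes 1 was called higher (Alas2), beside 7.06% of all genes, with 632 to 1433 RPKM in HFD and 847 to 989 in LYC. Markers of lymphocytes had 0 to 2 reads a library in LYC, of neutrophils 2 to 4 and of bile duct cells 1 to 4, and none passed the filter. Without it both tools called the neutrophil gene S100a8 higher, with 1 read in HFD and 4 in LYC (edgeR's quasi-likelihood test, adjusted p = 0.0810), and limma called Krt7 of bile duct cells lower, with 16 reads in HFD and none in LYC where 2.07 were to be expected, which edgeR did not. The calls of Eng, Cps1 and Alas2 were lost when most of the libraries were left out one at a time, with a log2 fold change of -1.30 without HFD1 for Eng, 0.90 without LYC2 for Cps1 and 0.86 without HFD2 for Alas2. The part of these cell types in the values of the members was not tested.

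A second deposited table, labelled as RNA-seq of the same livers, could not serve as an independent measure. In LYC its counts of the 10 genes equalled the recovered Ribo-seq reads in 30 of 30 values, and over all genes the same-numbered libraries had the same reads in 78.2% to 78.6% of the genes. In HFD the libraries with most reads in common carried different numbers (HFD1 with the RNA-labelled HFD3, HFD2 with HFD1 and HFD3 with HFD2, at 26.1% to 49.4% of the genes), and the members differed there by at most 16 reads. Any other pair shared at most 7.29%. Fitted by itself with edgeR's quasi-likelihood test, this table called 1 member of 8 higher, Vsig4 (log2 fold change 1.61, adjusted p = 0.0299), beside 9.31% of its genes called higher, and no member lower. No translational efficiency was computed for the markers.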

How the data were processed

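Ribo-seq and RNA-labelled libraries of 3 HFD and 3 LYC livers were used, 12 libraries in all. The authors deposited RPKM values for the Ribo-seq libraries, and read counts with RPKM values for the libraries labelled RNA-seq. Their notes name cutadapt, Bowtie2 and mm10, and the study's methods name STAR and FANSE2. Versions, annotation and filters are not given in the sources used here.

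Reads were recovered from the RPKM steps with the gene lengths of the second table (11057 of 15749 genes above 0) or a length fitted to the gene (4679), the remaining 13 being rounded. A value was taken as whole within 0.01 reads. By the second table's lengths alone, 70.2% to 71.2% of the values of a library were whole. Totals were 2726202, 4405541 and 834410 reads in HFD and 394461, 311050 and 412116 reads in LYC. Of these, 78.0% to 89.7% were recovered on listed genes in a library. Within these listed-gene reads, small non-coding RNA took 2.56% to 4.10% in HFD, beside 8.66% to 13.3% in LYC. Of the entries, 4 that shared a name were left out and 26 had names turned into dates. Poisson intervals and the floor of 3 reads cover counting error only.

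LYC was compared with HFD by limma with a mean-variance trend, two-sided, on log2(RPKM / TMM factor + 1) for the genes kept by filterByExpr, with Benjamini-Hochberg adjustment over all of them. The count tests on recovered reads were alternatives, and the second table's counts were fitted by edgeR's quasi-likelihood test. Intervals of fold changes are at 95%. Genes removed by the filter were compared by an exact permutation test. Other alternatives were total-read scalings, pseudocounts of 0.1 and 5, no filter, a replicate block, removal of a length trend, stricter limits and leaving out each library. An unfiltered edgeR fit, the ratios, the motifs and the promoters shown were chosen after seeing the data. The scripts were tested on simulated data. Besides the 10 members, genes were named from 15 lists where called without overlap or with most reads in a list, and from the 5 genes most like the member with most reads. Any other gene was named after its values were seen. A result for 1 list gene is not reported here. The members and lists were chosen with earlier results of these data known. Gene positions are from RefSeq on GRCm38.p6. The tools were Python 3.11.15 (matplotlib 3.10.9, scipy 1.17.1, pandas 2.3.3 and numpy 2.4.6) and R 4.3.3 (DESeq2 1.42.0, edgeR 4.0.16 and limma 3.58.1).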

Additional observations from a re-analysis of the deposited data

How the results depend on the processing

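Depth limits the LYC values, since 10 of 30 rest on 5 reads or fewer. The 403 genes called higher became 235 with total reads, 200 at p below 0.001 and 273 to 579 with a library left out. The 371 called lower became 666 with total reads, 572 with total reads outside small non-coding RNA, 219 with a pseudocount of 5, 852 without the filter, 557 with edgeR's exact test, 862 with edgeR's quasi-likelihood test without the filter (added after seeing the data), 107 at p below 0.001 and 153 to 701 with a library left out. Of the members, Vsig4 alone (1) was called higher under edgeR's quasi-likelihood test with and without the filter, the exact test and DESeq2, and C1qc alone (1) lower under total reads (-2.62), the exact test and the unfiltered quasi-likelihood test. With a library left out, 0 to 1 members were called in each direction, both calls coming without LYC3. Of the list genes, 4 higher calls became 2 under both total-read scalings and at p below 0.001, and 2 to 7 with a library left out. The 2 lower calls became 5 with total reads, 4 without small non-coding RNA, 7 without the filter, 5 with the unfiltered quasi-likelihood test, 1 with the length trend removed or at adjusted p below 0.05, 0 at p below 0.001, and 1 to 4 with a library left out.

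The log2 fold change of Clec4f turned to -0.15 with total reads, -0.080 outside small non-coding RNA and -0.047 to 0.30 with a library left out. That of Cd5l ran from -0.42 to 0.053 with a library left out. That of Adgre1 turned to 0.0025 with a pseudocount of 5, 0.014 with edgeR's quasi-likelihood test, 0.0056 with the exact test, 0.023 with DESeq2, 0.13 with the length trend removed and -0.31 to 0.30 with a library left out. In the table labelled RNA-seq, total reads gave 134 genes higher and 2747 lower, with 0 members higher and 4 lower. No filter gave 920 lower and 1 member lower. Leaving out a library gave 458 to 706 higher, 317 to 590 lower and 0 to 1 members in each direction. Lars2 took 6.68% to 15.0% of these counts in HFD and 35.9% to 40.3% in LYC. The causes were not tested.

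The deviations of same-numbered libraries of the groups had correlations of 0.10, 0.03 and -0.01 over genes, beside -0.11 to 0.07 for the other pairs. With 3 libraries per group these values cannot show whether the numbers pair the mice. With a replicate block the Ribo-seq fit called 399 genes higher, 348 lower and 0 members, and the RNA-labelled fit called 0 members higher.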
